A study of Mus musculus with 74 samples.

Results

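The comparison described here sets a Smad3 knockout line of mouse cells, labelled S3KO, against a Smad2 knockout line, labelled S2KO, in their response to transforming growth factor beta (TGF-β) at 2 and 4 h. Its members are the 6 S3KO and 6 S2KO arrays titled 2 h or 4 h, 3 arrays per line and time, chosen by title from 74 dual-channel arrays of 8976 cDNA probes. Per the labels, channel 1 of an array held total RNA of a line without TGF-β and channel 2 held RNA of the same line with TGF-β. S2KO and S3KO at 0 and 0.3 h (12 arrays), and the wild-type lines S2WT and S3WT at 2 and 4 h (12 arrays), served for comparison. The wild-type arrays at 0 and 0.3 h entered the choice of TGF-β-responsive probes, and the S2KO and S3KO arrays at 1 h the time course. The 0 h arrays carry labels without TGF-β in both channels, and so do the S3KO arrays titled 0.3 h, unlike the S2KO arrays of that time. The S2WT arrays titled 4 h carry a 2 h label in their channel fields. Of the remaining arrays, 15 are titled S2WT against U0126, an inhibitor of the kinase MEK, and they enter only the fits called "all 74 arrays". The labels do not spell out S2 and S3, nor give a cell type or TGF-β dose. A published study of this design used embryo fibroblasts from knockout mice and wild-type counterparts. Each genotype is labelled as 1 line, so the genotype and other differences between the lines cannot be told apart. Ratios within a line hold no expression level, so they check neither the knockout nor the cell type, and no probe carried the symbol Smad2 alone.

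TGF-β binds a complex of type II and type I receptors at the cell surface. The type I receptor phosphorylates Smad2 and Smad3, which join Smad4 and act on genes in the nucleus. Smad3 binds DNA directly at a short CAGAC box, whereas the common form of Smad2 does not. Among the genes known to respond early are those of inhibitors of the pathway itself, such as Smad7 and Skil, and of the transcription factor Snai1, known for repressing E-cadherin.

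All values below are log2 ratios after each array was centred on its median, so 0 is the median probe of the array. The direction was not stated with the values and was taken as likely TGF-β over no TGF-β, because genes known to be induced by TGF-β were above 0 on the wild-type arrays. A turned sign would swap higher and lower throughout. Differences are S3KO minus S2KO from limma, fitted to the 12 arrays with time as a factor, ± SE. "Called" means an adjusted p under 0.05 over all probes tested. Nothing in the labels tells if replicates came from separate cultures, so the spread behind each p-value may be technical. The 12 arrays gave values for 8074 to 8639 probes each, and the precision is limited by their number, since signal intensities were not used here. The fits take the arrays of a line as independent. Arrays of the same line and replicate number at 2 and 4 h, however, deviated together from their group means, with correlations across probes from 0.19 to 0.25 in S2KO and from 0.14 to 0.29 in S3KO, and each 2 h array correlated best with the 4 h array of its number. Values with line and number as a random block (limma, duplicateCorrelation), a fit added after the data were seen, are given beside the called genes. Correlations across probes between pairs of the 12 arrays ran from 0.036 to 0.39. The S2KO arrays were spread more widely than the S3KO arrays: the median absolute deviation of their ratios averaged 0.594 ± 0.0892 (SD, n = 6) against 0.39 ± 0.0906 (SD, n = 6; two-sided exact permutation test, p = 0.00649, arrays again taken as independent). At 0 and 0.3 h these spreads were 0.518 and 0.409 (exact p = 0.182). The spread moves with the line in the same way as the results below, and its part in them was not tested beyond the values given with all arrays scaled to a common spread.

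A total of 3 genes passed the test, Gadd45b, Snai1 and Tnfrsf1b, and for each the ratio was near 0 or modest in S3KO and clearly above 0 in S2KO. They are 3 of 8189 probes tested (0.0366%), all lower in S3KO. At an unadjusted p under 0.05 there were 448 probes lower in S3KO (5.47%) and 311 higher (3.8%), or 759 in all. With line and number as a random block limma called 2 probes, Gadd45b and Snai1, and 472 had an unadjusted p under 0.05. The sequences around the starts of these 3 genes are shown because Smad3 is known to bind CAGAC. They run from 250 bases before to 50 after the start, from RefSeq on the mouse build GRCm38.p6, 5′ to 3′ on the strand of the gene. Capitals mark CAGAC on either strand, read as GTCTG on the other. Gadd45b lies at chr10:80929841-80930140 (plus strand), Snai1 at chr2:167537945-167538244 (plus strand) and Tnfrsf1b at chr4:145246821-145247120 (minus strand).
Gadd45b: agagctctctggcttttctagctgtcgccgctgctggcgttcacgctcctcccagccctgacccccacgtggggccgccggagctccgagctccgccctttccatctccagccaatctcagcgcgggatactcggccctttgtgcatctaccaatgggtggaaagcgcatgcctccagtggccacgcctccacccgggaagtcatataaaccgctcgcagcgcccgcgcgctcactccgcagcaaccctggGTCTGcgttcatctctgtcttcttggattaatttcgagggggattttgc
Snai1: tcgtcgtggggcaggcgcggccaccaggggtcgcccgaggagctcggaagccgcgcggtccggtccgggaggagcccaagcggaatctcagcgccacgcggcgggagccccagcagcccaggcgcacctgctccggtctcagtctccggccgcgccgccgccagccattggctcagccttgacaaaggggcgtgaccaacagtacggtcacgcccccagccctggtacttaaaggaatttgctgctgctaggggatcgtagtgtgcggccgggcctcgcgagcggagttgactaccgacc
Tnfrsf1b: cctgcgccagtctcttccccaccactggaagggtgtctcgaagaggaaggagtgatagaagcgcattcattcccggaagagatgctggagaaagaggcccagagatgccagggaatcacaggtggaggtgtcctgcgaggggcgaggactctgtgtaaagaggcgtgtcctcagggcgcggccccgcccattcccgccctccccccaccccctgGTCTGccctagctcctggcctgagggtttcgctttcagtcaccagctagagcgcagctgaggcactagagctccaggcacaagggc
The letters occur 1 time in the Gadd45b window and 1 time in that of Tnfrsf1b, and 0 times in that of Snai1. Of 32851 mouse promoter windows of the same length, 49.6% hold them at least 1 time. The palindrome GTCTAGAC, which 0.213% of the windows hold, and the AP-1 motif TGANTCA, which 7.81% hold, were in none of the 3 windows on either strand. A match of letters is not a binding site, and these windows leave out distant enhancers.

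Gadd45b encodes a stress-inducible protein that activates p38 kinase signalling and is known as a target of Smad signalling. Its log2 ratio was 2.48, 2.18 and 2.98 on the S2KO arrays at 2 h and 2.79, 1.78 and 2.73 at 4 h. On the S3KO arrays it was 0.72, 0.36 and 0.73 at 2 h and 0.72, 0.42 and 0.60 at 4 h. Every S3KO array was below every S2KO array, and all 12 were above 0. The difference was -1.90 ± 0.20 (limma, adjusted p = 0.00915, 95% interval -2.35 to -1.45), so the ratio of the channels was 3.73 times as high in S2KO. With the random block the adjusted p was 0.0268. The difference was -1.94 ± 0.30 at 2 h and -1.85 ± 0.30 at 4 h.

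Snai1, the zinc finger repressor of E-cadherin, had ratios of 1.94, 1.59 and 2.63 in S2KO at 2 h and 2.26, 1.90 and 2.13 at 4 h. In S3KO they were 0.59, 0.42 and 0.64 at 2 h and 0.66, 0.26 and 0.23 at 4 h. The lines again did not overlap, and the highest S3KO array was nearly 1 log2 unit below the lowest S2KO array. The difference was -1.61 ± 0.18 (limma, adjusted p = 0.00915, with the random block 0.0349), or 3.05-fold. Gadd45b and Snai1 kept their calls in 12 of 12 fits that left out an array. Neither was called with arrays scaled to a common spread, where the Gadd45b difference was -1.28 (adjusted p = 0.209) and the Snai1 difference was -1.11 (adjusted p = 0.433). Their calls also ended without centring (adjusted p = 0.0815 for both) and with a trend in eBayes (0.529 and 0.336).

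Tnfrsf1b encodes TNF receptor 2, a cell surface receptor for tumour necrosis factor. Its ratios in S2KO were 1.60, 1.22 and 1.39 at 2 h and 0.85, 0.53 and 0.49 at 4 h. In S3KO they were 0.02, 0.11 and -0.07 at 2 h and -0.27, -0.24 and -0.15 at 4 h. The S3KO arrays therefore lay around 0 while the S2KO arrays were all positive and higher at 2 h than at 4 h. The difference was -1.11 ± 0.14 (limma, adjusted p = 0.0219), and -0.92 on scaled arrays (adjusted p = 0.0414). A further Tnfrsf1b probe gave -1.03 ± 0.23 (unadjusted p = 0.000935, adjusted p = 0.258). Tnfrsf1b lost its call (adjusted p up to 0.0809) without S2KO 2 h replicate 3 or 4 h replicate 1, and without any S3KO array except 4 h replicate 3. The call also ended with the random block (limma, adjusted p = 0.116), with the replicate number as a block (0.0629), with probes averaged (0.0586) and without centring (0.0815).

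**Figure D1:**
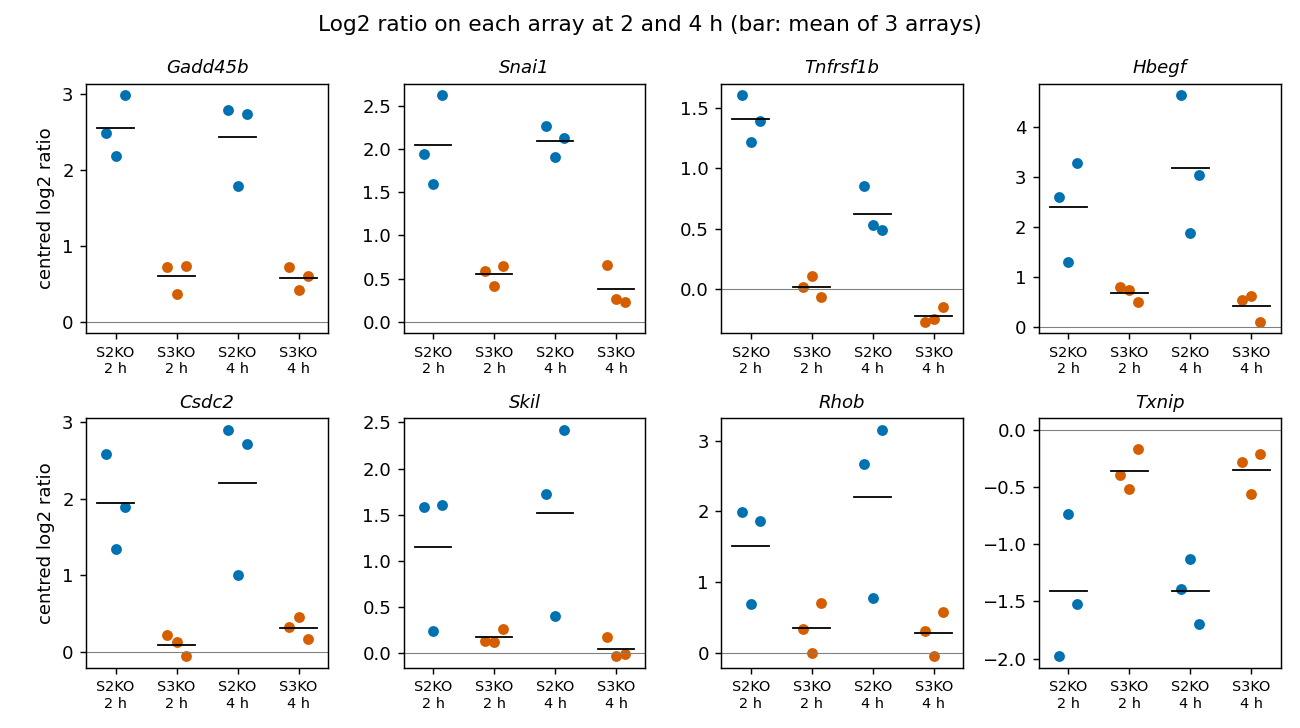
Centred log2 ratio (vertical axis) of 8 genes on each array of S2KO (blue) and S3KO (orange) at 2 and 4 h, with the mean of 3 arrays as a bar. Gadd45b, Snai1, Tnfrsf1b, Hbegf, Csdc2 and Txnip do not overlap between the lines, whereas S2KO replicate 2 of Skil and Rhob at 2 h lies within the S3KO range. Of 5426 probes measured on all 12 arrays, 1.16% were lower in S3KO without overlap and 0.461% higher.

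The same genes were followed from 0 h. In S2KO the mean Gadd45b ratio was 0.81, 1.27, 2.60, 2.55 and 2.43 at 0, 0.3, 1, 2 and 4 h, and the Snai1 ratio was 0.68, 1.08, 2.80, 2.05 and 2.10. In S3KO the Gadd45b means were 0.07, 0.68, 0.10, 0.61 and 0.58, and those of Snai1 were 0.29, 0.52, -0.28, 0.55 and 0.38. Both genes were thus highest at 1 h in S2KO, where the S3KO group has only 2 arrays. Tnfrsf1b was highest at 2 h in S2KO, with means of 0.07, 0.14, 0.66, 1.40 and 0.62 over the 5 times. Its S3KO means stayed between -0.22 and 0.25.

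**Figure D2:**
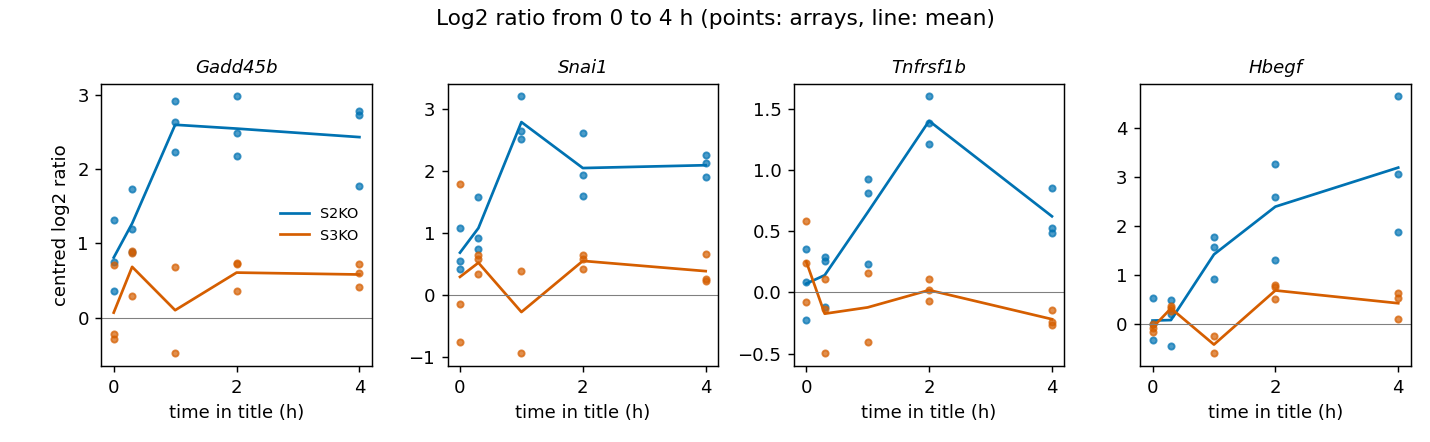
Centred log2 ratio (vertical axis) against the time in the array title (h, horizontal axis) for 4 genes in S2KO (blue) and S3KO (orange), with points for arrays and lines through the group means. The S2KO mean of Gadd45b goes from 0.81 at 0 h to 2.60 at 1 h, while the S3KO means stay at or under 0.68.

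With the spread taken from all 74 arrays, 90 probes were called, 67 lower in S3KO (0.818%) and 23 higher (0.281%). In 63 of the 67 the S2KO mean was farther from 0 than the S3KO mean, and their median ratio was 1.1 in S2KO and 0.189 in S3KO. In 22 of the 23 higher probes S2KO was again farther from 0, at a median of -0.952 against 0.0878. The share over all probes was not counted, and these probes were chosen on the difference between the same arrays. The counts therefore do not show a weaker response in S3KO. The S2KO arrays were spread more widely (0.594 against 0.39), and the part of that spread in these counts was not tested. Of 5426 probes measured on all 12 arrays, 63 had every S3KO array below every S2KO array (1.16%) and 25 had every S3KO array above (0.461%). At 0 and 0.3 h the shares were 0.305% and 0.349% of 4585 probes. The genes in the next paragraphs were not called on the 12 arrays, and the adjusted p given for some of them is that of this larger fit, where stated. That fit pools the spread over all lines and the U0126 arrays, so its p may understate the spread of more variable S2KO arrays. For Hbegf the SD at 2 and 4 h was 1.17 in S2KO and 0.245 in S3KO. Its SE was 0.467 on the 12 arrays and 0.321 in the larger fit.

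Hbegf, the secreted heparin-binding EGF-like growth factor, showed the widest gap among the TGF-β targets. Its ratio in S2KO was 2.60, 1.31 and 3.28 at 2 h and 4.65, 1.88 and 3.05 at 4 h. In S3KO it was 0.79, 0.74 and 0.51 at 2 h and 0.53, 0.62 and 0.10 at 4 h. No S3KO array reached the lowest S2KO array, but the S2KO arrays differed among themselves by over 3 log2 units. The difference was -2.25 ± 0.47 (limma, adjusted p = 0.222), and the adjusted p was 1.48e-05 with the spread of all 74 arrays. The S2KO means were 1.42 at 1 h, 2.40 at 2 h and 3.20 at 4 h, each above the one before.

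Csdc2, which encodes a cold-shock domain RNA-binding protein, lay between 1.00 and 2.90 in S2KO and between -0.06 and 0.46 in S3KO. The difference was -1.87 ± 0.32 (limma, adjusted p = 0.113; all 74 arrays, 4.12e-06). The gene's other probe could not be tested on these arrays. Gpsm1, a regulator of G protein signalling, had means of 1.51 and 0.35. Tmem119, a membrane protein known in osteoblasts and microglia, had means of 1.42 and 0.31. The adjusted p of Gpsm1 and Tmem119 was 0.252 and 0.222 by limma on the 12 arrays, and 2.12e-05 and 0.00136 with all 74 arrays. The transcription factor gene Foxo1 was at 1.87, 1.38 and 1.45 in S2KO at 2 h and at 0.99, 0.31 and 0.28 at 4 h, against -0.48 to 0.13 in S3KO. Like Tnfrsf1b, it was higher in S2KO at 2 h than at 4 h. Efnb1, the membrane-bound ligand ephrin B1, was between 0.70 and 1.41 in S2KO and between -0.16 and 0.31 in S3KO, with a difference of -0.89 ± 0.14 (limma, adjusted p = 0.0757). A further Foxo1 probe gave -2.35 ± 0.86. Gpsm1, Tmem119, Foxo1 and Efnb1 were chosen after their values were seen.

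A list of early TGF-β target genes, drawn up with earlier results of these arrays known, had 19 probes of 14 genes on the array. All 19 had a difference below 0, with a median of -0.544 (median ratio 0.669 in S2KO and 0.185 in S3KO). Over all 8189 probes the median difference was -0.000583 and 50.1% were below 0. On scaled arrays the median of the 19 was -0.374, with 19 of 19 below 0. Of the 19, 2 were called (Gadd45b and Snai1), and 9 had an unadjusted p under 0.05, beside the 5.47% of all probes. Rhob, a small GTPase of the cytoskeleton, was at 1.99, 0.69 and 1.86 in S2KO at 2 h and 2.67, 0.78 and 3.15 at 4 h, and between -0.05 and 0.70 in S3KO. Skil, the Smad corepressor SnoN, was at 1.59, 0.24 and 1.61 in S2KO at 2 h and 1.72, 0.41 and 2.42 at 4 h, and between -0.03 and 0.27 in S3KO. For both genes S2KO replicate 2 was the lowest S2KO array at each time and lay within or beside the S3KO range. The differences were -1.54 ± 0.40 for Rhob and -1.22 ± 0.34 for Skil (limma, adjusted p = 0.32 and 0.329; all 74 arrays, 0.0017 and 0.000205).

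Other targets were less separate. Ccn1, a matricellular protein, had means of 1.52 in S2KO and 0.18 in S3KO, a difference of -1.34 ± 0.36 (adjusted p = 0.326; all 74 arrays, 0.0768). The difference of Klf10, a zinc finger gene named for its induction by TGF-β, was -0.11 ± 0.23 at 2 h and -1.01 ± 0.23 at 4 h (adjusted p = 0.485 at 4 h). The circadian repressor Bhlhe40 had a difference of -0.54 ± 0.35, with a 95% interval from -1.32 to 0.23. For the inhibitory Smad gene Smad7 it was -0.26 ± 0.16, with an interval from -0.61 to 0.09. A further Smad7 probe gave -0.89 ± 0.56. The intervals of Bhlhe40 and Smad7 include 0 and do not show that the lines respond alike. The cell cycle inhibitor Cdkn1a was at 0.84 and 0.45, a difference of -0.39 ± 0.16.

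Among the receptors, Smads and Smurf ubiquitin ligases, 13 of 24 probes were lower in S3KO, with a median difference of -0.0518, and none was called on the 12 arrays by limma. An unadjusted p under 0.05 was reached by 4 lower and 1 higher probe (5.47% and 3.8% of all probes). With the spread of all 74 arrays 2 were called, both lower (0.818% of all probes). Those 2 are the type I receptor gene Tgfbr1 and Smurf1, whose product degrades receptors and Smads. Tgfbr1 was at 1.35, 0.18 and 1.09 in S2KO at 2 h and 1.69, 0.18 and 1.06 at 4 h, against -0.33 to 0.16 in S3KO. Its difference was -1.03 ± 0.27 (limma, adjusted p = 0.313 on the 12 arrays and 0.0168 with all 74 arrays). Smurf1 had means of 1.12 and 0.45, so it was above 0 in both lines. Its difference was -0.68 ± 0.19 (limma, adjusted p = 0.329 on the 12 arrays and 0.00845 with all 74 arrays). Eng, the co-receptor endoglin, was below 0 in S2KO (-0.91) and near 0 in S3KO (0.11), on 5 arrays of each line (difference 1.03 ± 0.36, adjusted p = 0.455). The type II BMP receptor gene Bmpr2 had means of 0.70 and 0.26. Smad3 itself had a difference of 0.25 ± 0.15, and its other probes -0.16 ± 0.53 and -0.16 ± 0.50. Smurf2 was at -0.23 ± 0.12 and the corepressor gene Tgif1 at -0.42 ± 0.24.

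Of the 16 probes of immediate early genes, 14 were lower in S3KO, with a median difference of -0.639 (ratio 0.862 in S2KO, 0.177 in S3KO). Limma called 0 on the 12 arrays, 4 were lower at an unadjusted p under 0.05 (5.47% of all probes), and 2 were called lower in the fit of all 74 (0.818%). Ier2, a nuclear factor of the early growth response, was at 1.48, 0.80 and 0.69 in S2KO at 2 h and 3.67, 1.46 and 2.26 at 4 h, against 0.06 to 0.67 in S3KO. The gap was wider at 4 h (-2.20 ± 0.48) than at 2 h (-0.66 ± 0.48), but that change was not called (limma, unadjusted p = 0.0459). Maff, a small Maf transcription factor, had means of 1.34 and 0.22, with S2KO replicate 2 at -0.14 and 0.10 and so not above the S3KO arrays. Of 28 probes for actin, adhesion and contractile genes, 22 were lower in S3KO (median difference -0.142). Limma called 0 of them, 6 were lower at an unadjusted p under 0.05 (5.47% of all probes), and 3 were called lower in the fit of all 74 arrays (0.818%). The LIM domain genes Csrp2 and Fhl2 had means of 1.65 and 1.19 in S2KO and of 0.48 and 0.36 in S3KO. Their adjusted p was 0.311 and 0.447 by limma on the 12 arrays, and 0.00238 and 0.0201 with all 74 arrays. Fhl2 was chosen after its values were seen. A probe of the integrin gene Itgb1 gave -0.44 ± 0.12 and the other -0.01 ± 0.14, so the probes disagree.

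Of 20 probes for matrix and protease genes, 16 were lower in S3KO, with a median difference of -0.148. Limma called 0, in the fit of all 74 arrays too, and 2 were lower at an unadjusted p under 0.05 (5.47% of all probes). The median of this list was -0.129 at 0 and 0.3 h and 0.0267 after the early arrays were subtracted. The proteoglycan gene Bgn was at -0.52 ± 0.24 and the gelatinase gene Mmp2 at -0.31 ± 0.12. The remaining lists had medians of 0.0297 for genes of G1 and S phase, 0.0454 for mitosis, 0.0795 for cholesterol synthesis, -0.0903 for cytosolic ribosomal proteins and 0.257 for interferon-induced genes. Growth factors and cytokines (8 probes) had a median of -0.438, chaperones (5 probes) of -0.264 and glycolysis and hypoxia genes (7 probes) of -0.366. After the early arrays were subtracted the medians of the first 2 of these were -0.73 and -0.55, and that of the glycolysis and hypoxia genes turned to 0.102. The medians of the mitosis genes (-0.0348), the endothelial markers (-0.0025) and the epithelial probe (0.171) also turned. Limma called 0 probes of these lists on the 12 arrays, and at most 2 per list and direction had an unadjusted p under 0.05. The fit of all 74 arrays called only Hbegf and Pbk, described elsewhere in the text, among them. Of the marker lists, 8 fibroblast probes had a median difference of 0.0694, 4 endothelial probes of 0.0894, 3 blood and macrophage probes of 0.617 and the only epithelial probe was at -0.365. No muscle marker was measured. Limma called 0 marker probes in either fit. A probe of the fibroblast marker Pdgfra was at -0.94 ± 0.31 (unadjusted p = 0.0119), and its other probes had differences above 0 (0.63 to 0.88).

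Txnip and Meg3 had higher ratios in S3KO without passing the test. Txnip, the inhibitor of thioredoxin, was at -1.98, -0.74 and -1.52 in S2KO at 2 h and -1.39, -1.13 and -1.70 at 4 h. In S3KO it was at -0.40, -0.52 and -0.17 at 2 h and -0.29, -0.57 and -0.22 at 4 h. The ratio was below 0 in both lines and farther below in S2KO (difference 1.05 ± 0.20, adjusted p = 0.185; all 74 arrays, 0.00223). A further Txnip probe gave 0.24 ± 0.21. Meg3, a long noncoding RNA of an imprinted cluster, was between -1.36 and -0.66 on 5 S2KO arrays and between 0.25 and 1.20 on 6 S3KO arrays (difference 1.51 ± 0.21, adjusted p = 0.0563). In S2KO Meg3 averaged -1.56 at 0 h, where replicate 1 was at -4.06, and 0.17 at 0.3 h. The difference at 0 and 0.3 h was 1.02 ± 0.61, and after its subtraction 0.46 ± 0.69 remained (limma, adjusted p = 0.878).

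Wild-type arrays gave a list of TGF-β-responsive probes that uses no knockout array. It was added after the data were seen. In S2WT and S3WT together, 74 of 7756 probes were called for 2 and 4 h against 0 and 0.3 h, 44 higher and 30 lower with TGF-β. Of these, 42 and 28 could be tested in the knockout lines, against 18 and 44 without centring, where more probes were lower than higher. The 42 ran from 28 to 57 with a wild-type array left out. The 28 ran from 10, without S3WT 0 h replicate 3, to 34. They were at most 18 without any 1 of 17 of the 24 wild-type arrays, the exceptions being S2WT 0.3 h replicate 2, 2 h replicate 2 and 4 h replicates 1 and 2, and S3WT 2 h replicates 2 and 3 and 4 h replicate 3. Of the 42 higher ones that could be tested, 37 (88.1%) were lower in S3KO than in S2KO, at median ratios of 0.217 and 0.83. Unadjusted p-values under 0.05 were reached by 19 of them, all lower in S3KO, where 5.47% of all probes did so. Of the 28 lower ones tested, 23 (82.1%) were higher in S3KO, at median ratios of -0.0207 and -0.431. Both sets were thus closer to 0 in S3KO. At 0 and 0.3 h, 23 of 44 and 14 of 28 were lower in S3KO, with median differences of -0.0158 and 0.0102. On scaled arrays the counts were 33 of 38 and 19 of 26, and without centring 18 of 18 and 38 of 44.

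The median over the wild-type-higher probes was 0.834, 0.375 and 0.758 on the S2KO arrays at 2 h and 1.33, 0.408 and 1.12 at 4 h. On the S3KO arrays it was 0.218, 0.208 and 0.242 at 2 h and 0.287, 0.175 and 0.196 at 4 h. No S3KO array reached the lowest S2KO array, and replicate 2 was the lowest S2KO array at both times. Besides Hbegf, Gadd45b and Csdc2, the widest gap was that of Mcam, a cell adhesion molecule, with means of 2.02 and 0.47 and a difference of -1.55. Both probes of Creb3l2, a membrane-bound CREB family factor, were lower in S3KO (-0.71 and -0.47). Among the wild-type-lower probes, Pik3r1, the regulatory subunit of PI3 kinase, was at -1.12 and -0.03, and Arid5b, a histone demethylase cofactor, was at -0.65 and -0.09. The RNA-decay factor gene Zfp36l1 was at -0.58 and -0.54 in S2KO on its probes and at -0.19 and -0.07 in S3KO. Mcam, Creb3l2, Pik3r1, Arid5b and Zfp36l1 were picked after their values were seen.

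**Figure D3:**
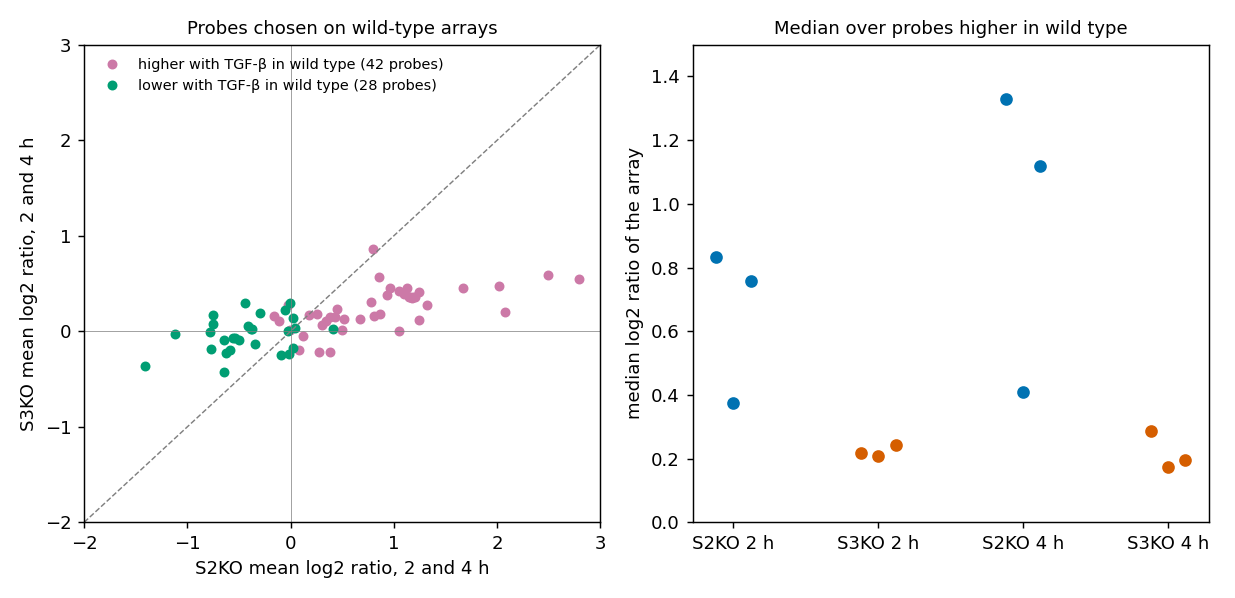
Left, mean log2 ratio at 2 and 4 h in S3KO (vertical) against S2KO (horizontal) for the 42 probes higher (pink) and 28 probes lower (green) with TGF-β in the wild-type lines; the dashed line marks equal values. Right, the median log2 ratio over the wild-type-higher probes on each array, where the S3KO arrays (orange) lie between 0.175 and 0.287 and the S2KO arrays (blue) between 0.375 and 1.33.

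Subtracting the 0 and 0.3 h mean of each line asks whether the lines already differed before or soon after TGF-β. By their labels the baselines are unlike. The S3KO arrays titled 0.3 h had no TGF-β in either channel, unlike the S2KO arrays of that time. Limma called 0 of 7527 probes (0%), with 505 at an unadjusted p under 0.05 (303 lower, 4.03%, and 202 higher, 2.68%) and 7 called with the spread of all 74 arrays, all lower (0.093%). The 0 h replicates 1 and 2 of S3KO stood apart, with correlations from -0.12 to 0.086 with the other arrays of that fit. Without them 4 probes were called, 3 higher and 1 lower, the last being Snai1 (-1.88, adjusted p = 0.026). That choice was made after the data were seen and leaves 1 S3KO array at 0 h, taken to vary like the other groups, where Snai1 was at 1.79 against -0.15 and -0.77 on the arrays left out. With all arrays the differences were -1.23 ± 0.34 for Gadd45b, -1.13 ± 0.44 for Snai1 and -1.05 ± 0.21 for Tnfrsf1b (limma, adjusted p = 0.637, 0.727 and 0.239). The smaller values of Gadd45b and Snai1 go with lower S3KO ratios at 0 and 0.3 h (-0.66 ± 0.25 and -0.48 ± 0.37), whereas Tnfrsf1b then differed by -0.07 ± 0.19. Hbegf (-2.29 ± 0.52), Csdc2 (-1.89 ± 0.38) and Skil (-1.34 ± 0.38) were close to their values before subtraction. They were not called in this fit either (limma, adjusted p = 0.464, 0.239 and 0.637). With the spread of all 74 arrays the adjusted p of their subtracted differences was 0.0131, 0.0127 and 0.0339. Their differences at 0 and 0.3 h were 0.05, 0.02 and 0.11. For Foxo1 the value was -0.39 ± 0.30. Tested directly at 0 and 0.3 h, limma called 0 of 7962 probes (0%), 555 had an unadjusted p under 0.05 (285 lower, 3.58%, and 270 higher, 3.39%), and 19 were called with the spread of all 74 arrays (7 lower, 0.0879%, and 12 higher, 0.151%).

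Each knockout line was also set against the wild-type line of the same number, as (S3KO minus S3WT) minus (S2KO minus S2WT). Limma called 0 of 7818 probes (0%), with 707 at an unadjusted p under 0.05 (394 lower, 5.04%, and 313 higher, 4%) and 13 with the spread of all 74 arrays (9 lower, 0.115%, and 4 higher, 0.0512%). The mean Gadd45b ratio was 1.73 in S2WT and 1.27 in S3WT, so the S2KO value of 2.49 was above both and the S3KO value of 0.59 below both. The relative difference was -1.44 ± 0.38 (adjusted p = 0.237). Snai1 was at 1.20 and 0.80 in the wild-type lines, again between the knockouts, with a relative difference of -1.21 ± 0.26 (adjusted p = 0.173). Hbegf (2.20 and 1.62) and Csdc2 (1.51 and 1.17) had the same order, with relative differences of -1.66 ± 0.58 and -1.53 ± 0.44. With the Csdc2 probes averaged its relative difference was -0.34. Tgfbr1, at -0.22 in S2WT and 0.32 in S3WT, had a relative difference of -1.56 ± 0.36 (limma, adjusted p = 0.199, and 0.022 with all 74 arrays).

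For Tnfrsf1b and Txnip the wild-type lines had values in the same order as the knockouts, as they also had for Gadd45b, Snai1, Hbegf and Csdc2. The wild-type gap of Tnfrsf1b and Txnip was larger beside that of the knockouts. Tnfrsf1b was at 0.60 in S2WT and -0.17 in S3WT, and the relative difference was -0.34 ± 0.22 (adjusted p = 0.628). Txnip was at -1.24 in S2WT and -0.20 in S3WT, and its relative difference was 0.02 ± 0.30, with a sign that turned without centring (-0.14), on scaled arrays (-0.24) and with probes averaged (-0.05). The Ccn1 value was -0.15 ± 0.85, with S3WT at -0.21 and S2WT at 0.98.

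**Figure D4:**
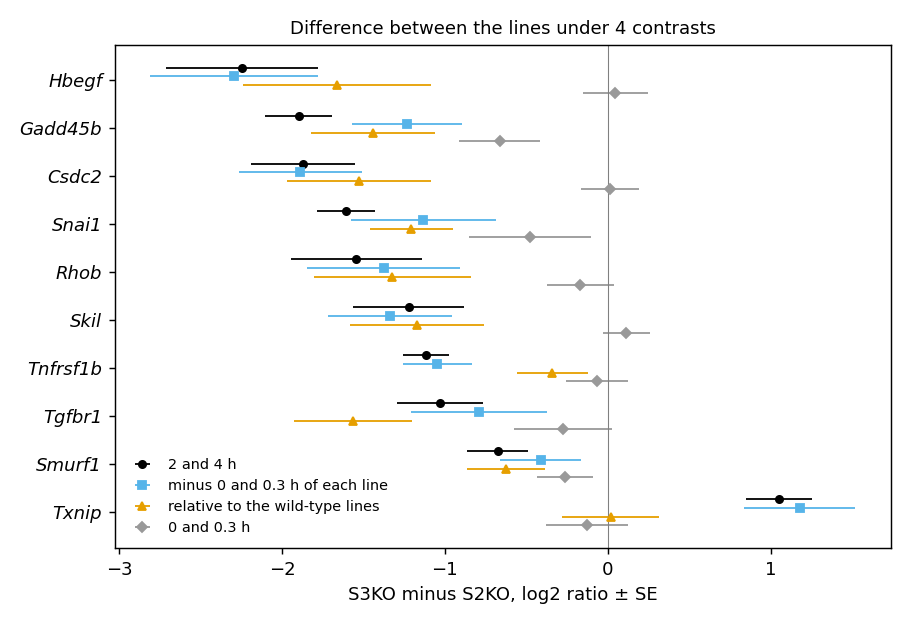
S3KO minus S2KO difference in log2 ratio ± SE (horizontal axis) for 10 genes at 2 and 4 h (black), after subtracting 0 and 0.3 h (blue), relative to the wild-type lines (orange) and at 0 and 0.3 h alone (grey). Tnfrsf1b moves from -1.11 to -0.34 and Txnip from 1.05 to 0.02 when set against the wild-type lines. Gadd45b, Snai1, Hbegf, Csdc2, Rhob and Skil stay below -1.1 in the first 3 on the probe shown (Csdc2 at -0.34 relative to the wild-type lines with its probes averaged). Limma called no probe after subtraction or relative to the wild-type lines.

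On its own, neither time had a called probe. At 2 h limma called 0 of 8189 (0%), with 258 lower (3.15%) and 235 higher (2.87%) at an unadjusted p under 0.05, and with the spread of all 74 arrays 32 lower (0.375%) and 14 higher (0.164%). At 4 h it called 0 (0%), with 339 lower (4.14%) and 222 higher (2.71%) at an unadjusted p under 0.05, and 29 lower (0.341%) and 14 higher (0.165%) with the spread of all 74 arrays. The change of the difference from 2 to 4 h was called by limma for 0 probes (0%). At an unadjusted p under 0.05 it was below 0 for 158 (1.93%) and above 0 for 140 (1.71%), and with the spread of all 74 arrays 5 (0.0611%) and 2 (0.0244%) were called. The smallest adjusted p at 2 h, 0.0738, was shared by Tnfrsf1b (-1.39 ± 0.17) and both probes of Cxxc5 (-1.40 ± 0.19 and -1.40 ± 0.20), which encodes a CXXC zinc finger protein. Cxxc5 differed by -0.13 ± 0.19 and -0.26 ± 0.20 at 4 h. Pbk, a mitotic kinase, had the same adjusted p at 2 h (2.54 ± 0.33) and lay at 0.08 ± 0.30 at 4 h, but its other probe gave 0.15 ± 0.18 at 2 h. At 0 and 0.3 h the Pbk difference was 1.69 ± 0.45.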

How the data were processed

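The authors deposited, for each array, log2 ratios between its channels. Dyes, scanning, background handling and normalisation are steps not given in the sources used here. Of the values of the 74 arrays, 1344 equal 16.61, the log2 of 1e+05, and values above 16.6 were set to missing (216 on the 12 arrays). Each array was centred on its median. Channel intensities were not used here.

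Differences were fitted per probe with limma 3.58.1 (lmFit and eBayes) in R 4.3.3, which leaves a missing value out of the fit. A probe was tested when measured on at least 2 arrays of every group in a contrast, and the Benjamini-Hochberg adjustment ran over all probes tested (threshold 0.05). The 2 and 4 h difference used the 12 arrays with line and time as terms. The difference at 0 and 0.3 h was fitted with the same terms on the arrays of those times. The other contrasts used means of line by time. The scripts were tested on simulated data.

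Symbols came from the platform annotation: 7348 probes have 1 symbol, 399 several and 1229 none, and 7274 of the first have a gene ID in RefSeq. Named by rule were the largest called differences (the 5 smallest p where under 3 were called), up to 4 members of each list with the smallest p, and a fixed set of pathway genes. Only part of that set is described, and genes added later are marked. The members, gene lists and rules were chosen with earlier results of these data known.

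Alternatives were other centring, scaling, filtering, weighting and averaging, the spread of all 74 arrays, a trend in eBayes, a replicate block, arrays of one line and number as a random block (added after the data were seen), other baselines and leaving out each array. Replicate numbers did not pair the lines: same-numbered arrays of S3KO and S2KO deviated from their group means with correlations from -0.052 to 0.12, over 0.1 in 1 of 6 pairs. Within a line, same-numbered arrays at 2 and 4 h did deviate together (0.14 to 0.29).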

Additional observations from a re-analysis of the deposited data

Results flagged for a closer look

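The responses of the lines to TGF-β at 2 and 4 h were tested against each other, and 3 genes differed after adjustment over 8189 probes (limma). The S3KO minus S2KO difference in log2 ratio was -1.90 for Gadd45b, -1.61 for Snai1 and -1.11 for Tnfrsf1b. In each the 6 S3KO arrays lay below the 6 S2KO arrays. After the 0 and 0.3 h mean of each line was subtracted, limma called none of the 3 (adjusted p = 0.637, 0.727 and 0.239). Without centring all 3 were at adjusted p = 0.0815. Gadd45b and Snai1 also missed the threshold on scaled arrays (0.209 and 0.433) and under an eBayes trend (0.529 and 0.336). When each of the 12 arrays was omitted in turn, Tnfrsf1b passed 5 times, and Gadd45b and Snai1 passed every time. Relative to the wild-type lines the Tnfrsf1b difference was -0.34 ± 0.22 (adjusted p = 0.628), and the cause was not tested. The test for a single value far from the rest of its group needs at least 4 arrays and was not run on groups of 3.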

How the results depend on the processing

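At 2 and 4 h 47 genes were refitted, among them each gene named in the report. On the probe of smallest p they kept their direction in 508 of 510 fits under other settings and in 544 of 544 that left out an array. The exceptions were Smad3 (-0.025) and Pdgfra (0.37) with probes averaged. Settings that change mainly the spread could hardly turn a direction. Gadd45b, for example, stayed at -1.898 with the spread of all 74 arrays and with a trend in eBayes. Part of the genes were picked after their values were seen, so these counts are no independent check. The number of calls at 2 and 4 h was 3. It was 0 without centring (Gadd45b, Snai1 and Tnfrsf1b at adjusted p = 0.0815), 5 with only probes measured on every array, 90 with the spread of all 74 arrays, 7 with array weights, and 1 with a trend in eBayes (Gadd45b at adjusted p = 0.529, Snai1 at 0.336). On scaled arrays it was 4, of which 3 were lower and 1 higher in S3KO. Of Gadd45b, Snai1 and Tnfrsf1b only the last was among them (limma, adjusted p = 0.209, 0.433 and 0.0414). Leaving out an array gave 2 to 8, with 8 when S2KO 4 h replicate 2 was omitted and 7 when S2KO 2 h replicate 2 was. With line and number as a random block it was 2 (Tnfrsf1b at adjusted p = 0.116), and 0 for the other contrasts. With the replicate block it was 2 (Tnfrsf1b at adjusted p = 0.0629), and 2 of 6 arrays correlated best with their own number. With probes averaged, Tnfrsf1b was at adjusted p = 0.0586. For the other contrasts the number was 0. With the spread of all 74 arrays it was 7 after subtracting early arrays, 13 relative to the wild-type lines, 46 at 2 h, 43 at 4 h, 7 for the change from 2 to 4 h and 19 at 0 and 0.3 h. After subtracting early arrays it was 4 without S3KO 0 h replicates 1 and 2, which leaves 1 array in that group and was chosen after the data were seen, and 0 to 11 with an array left out. It was 0 to 14 relative to the wild-type lines, 0 to 4 at 2 h and 0 to 2 at 4 h, each time highest without S2KO 4 h replicate 2, and 0 to 0 for the change from 2 to 4 h and at 0 and 0.3 h. With only probes measured on every array it was 3 at 2 h. The share of wild-type-higher probes lower in S3KO ran from 84.2% to 97.2%, and that of wild-type-lower probes higher in S3KO from 74.1% to 100%, with an array left out. The median of the early targets ran from -0.77 to -0.45. Txnip relative to the wild-type lines (0.02) turned to -0.14 without centring, -0.24 on scaled arrays and -0.046 with probes averaged, and ran from -0.12 to 0.19 with an array left out. The cause of these moves was not tested.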
